A study of Rattus norvegicus with 93 samples.

Results

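The comparison described here followed the second week of repair in 8 mm holes drilled through the rat skull vault: tissue taken at days 10 and 14 was set against tissue taken at day 7. It used 17 of the 93 arrays of the study, chosen by the defect size and day in each sample's title: 6 arrays at day 10 and 6 at day 14, pooled as 12, and 5 at day 7. All rats were male, 12 weeks old, with no strain given in the labels. A trephine removed a disc of calvarial bone, the dura mater beneath was left in place, the skin was sutured and no other treatment was given. An 8 mm hole is the size the study calls critical, and 4 mm holes were made as the smaller counterpart. The tissue inside each defect was cut out with a trephine of the same size, and total RNA of each defect was hybridised to its own 1-colour Agilent whole-genome rat array. Each array is therefore 1 defect, and the tissue is a mixture in which fewer cells of a type and less RNA per cell cannot be told apart.

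Calvarial bone heals by intramembranous ossification, in which mesenchymal cells of the dura, the periosteum and the bone margins become osteoblasts without a cartilage model. A blood clot and inflammatory cells come first, a collagen-rich granulation tissue with new vessels follows, and osteoblasts then lay down and mineralise osteoid. Type I collagen and alkaline phosphatase (Alpl) mark matrix-forming osteoblasts, osteocalcin (Bglap) and Ifitm5 mark mineralising ones, and Dmp1 marks cells being buried as osteocytes.

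The promoters of the 2 osteoblast genes with the largest changes below are shown because they are the genes the comparison of bone formation turns on. Each runs from 250 bases before the start to 50 bases after it, 300 bases from RefSeq on build GRCr8, 5′ to 3′ on the gene's own strand. Ifitm5 lies at chr1:205478142-205478441 and Bglap at chr2:176137269-176137568, both on the minus strand. Capitals mark the core recognised by RUNX factors (TGTGGT or its reverse ACCACA) and the TATA box letters (TATAAA or its reverse TTTATA).
Ifitm5: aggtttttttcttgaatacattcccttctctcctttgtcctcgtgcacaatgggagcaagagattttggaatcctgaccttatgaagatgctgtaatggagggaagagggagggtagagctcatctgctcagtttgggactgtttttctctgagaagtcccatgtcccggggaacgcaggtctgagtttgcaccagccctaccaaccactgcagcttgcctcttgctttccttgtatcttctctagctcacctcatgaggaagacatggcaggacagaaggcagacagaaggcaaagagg
Bglap: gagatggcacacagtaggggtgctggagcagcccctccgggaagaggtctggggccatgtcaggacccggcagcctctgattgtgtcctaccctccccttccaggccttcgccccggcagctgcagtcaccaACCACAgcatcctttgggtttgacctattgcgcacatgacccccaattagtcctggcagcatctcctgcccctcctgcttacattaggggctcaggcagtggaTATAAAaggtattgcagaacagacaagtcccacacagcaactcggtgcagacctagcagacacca
The Bglap window holds 1 RUNX core, on the reverse strand starting 118 bases before the start, and 1 TATA box; the Ifitm5 window holds neither. Among 33469 rat promoters of that length, 17.3% held the RUNX letters and 14.2% the TATA letters. These matches describe the letters only.

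The deposited value of a probe is a ratio to that probe's own usual level in the study: 87.8% of 41090 probes had a median of 1 over the 93 arrays. Values are given below as log2 of this ratio, so that 0 is the usual level, and they rank arrays for 1 probe but cannot rank genes. The lowest deposited value was 0.01, which is -6.64 on the log2 scale, and the share of values there was 10.4% to 20.3% at days 10-14 (median 17.5%), against 10.1% to 17.1% at day 7 (median 10.2%). There were 3 arrays that stood apart by a list of brain genes, whose mean log2 value was 3.85 at day 14 replicate 11, against 4.04 and 4.43 at day 7 replicates 10 and 12. On the other 14 arrays that mean was 0.13 or lower. The mean of a list of skeletal muscle genes was above 1 at day 14 replicate 12 (1.17), against day 7 replicates 12 and 13 (1.23 and 2.36). Day 10 replicates 10 and 11 had a low level over probes never at the lowest value, with medians of -0.77 and -0.97.

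**Figure D1:**
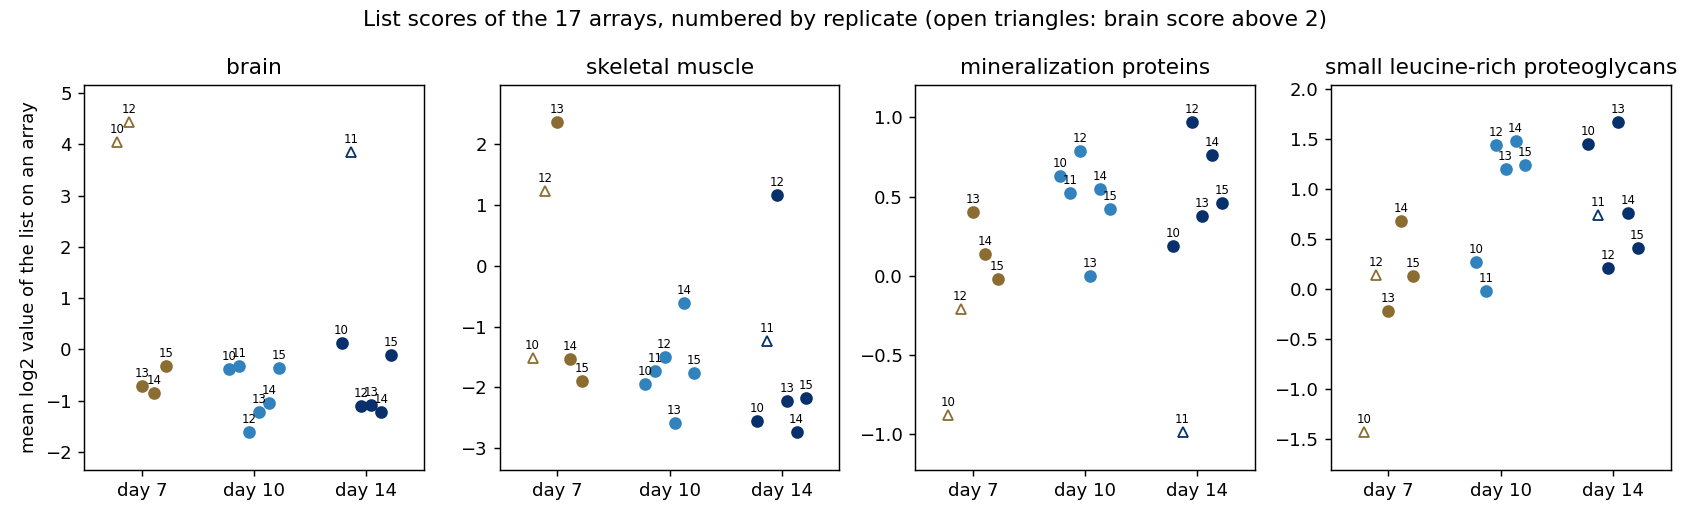
Mean log2 value of 4 gene lists on each of the 17 arrays (vertical axes) by day (horizontal axes), with the replicate number beside each point. Open triangles are the 3 arrays with a brain score above 2: day 7 replicates 10 and 12 and day 14 replicate 11. The same 3 arrays are the lowest for mineralization proteins.

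Few genes separated days 10 and 14 from day 7. Of 15974 genes, 18 passed (0.113%), with 16 higher (0.1%) and 2 lower (0.0125%) at days 10-14. The higher genes included the osteoblast membrane protein Ifitm5, the matrix protein Comp, the collagen receptor Ddr2 and the B cell receptor chain Cd79b, and the lower ones were the transcription factor Lhx2 and the unnamed locus LOC100911360. The test was limma's moderated test on log2 ratios, fitted over all 93 arrays with Benjamini-Hochberg adjustment at 0.05, and the median change of all genes was -0.10. When the 17 arrays were fitted alone, 0 genes passed in limma, with 740 genes at an unadjusted p under 0.05. The smallest adjusted p in that fit was 0.0806, for Or5a21, and the smallest among the 18 was 0.373. Unless stated otherwise, SEs and p-values below come from the fit over all 93 arrays, which shares 1 spread per gene over 14 groups. In the fit of the 17 arrays the SE was 1.08 against 0.59 for Cd79b and 1.49 against 0.87 for Comp. It was smaller in that fit for Ifitm5 and LOC100911360. Without the 3 arrays high in brain genes, 106 genes passed (0.664%), 104 of them higher and 2 lower, and 13 of the 18 were among them. That fit kept 11 later arrays and 3 day 7 arrays, among them replicate 13, the lowest or tied lowest day 7 array for 10 of the 16 higher genes. Without the 3 arrays high in muscle genes, 20 genes passed (0.125%), 19 higher and 1 lower, and 8 of the 18 were among them while 10 did not pass.

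The gene with the clearest role in bone among those passing was Ifitm5, a small membrane protein of mineralising osteoblasts that is altered in a form of brittle bone disease in people. At days 10-14 its log2 ratio ran between -0.38 and 3.09 with a median of 1.67, against 1.16, -1.23, -2.23, -2.58 and -6.64 on the 5 day 7 arrays. Of the 12 later arrays 10 lay above every day 7 array, the exceptions being day 14 replicates 11 and 15. The mean was 1.76 ± 0.88 at days 10-14 (SD, n = 12), against -2.31 ± 2.83 at day 7 (SD, n = 5). The change was 4.07 ± 0.95 (SE; adjusted p = 0.0468), a 16.7-fold ratio of geometric means. One day 7 array was at the lowest value and contributed to that ratio. Without the arrays high in brain genes the change was 5.44 (adjusted p = 0.00287), and without those high in muscle genes it was 3.79 (adjusted p = 0.314).

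Comp, cartilage oligomeric matrix protein, binds collagens and is made in cartilage, tendon and scar tissue. Its log2 ratio ran between -6.64 and 4.40 with a median of 0.59 at days 10-14, against 0.58, -1.49, -3.46, -6.52 and -6.64 at day 7. Of the 12 later arrays 6 were above all day 7 arrays, and day 10 replicate 11 was at the lowest value together with day 7 replicate 15. The change was 4.05 ± 0.87 (SE, adjusted p = 0.0201), with means of 0.55 ± 2.76 at days 10-14 and -3.51 ± 3.15 at day 7 (SD). In limma's fit of the compared groups alone the SE of Comp was 1.49 and its adjusted p was 0.92. The other cartilage genes did not pass: of 16 measured, 1 passed and 6 had a change above 0, and the list median was -1.01. Acan, the main proteoglycan of cartilage, changed by -0.94 ± 0.74 (adjusted p = 0.891), and Sox9, the regulator of chondrocytes, by -1.32 ± 1.57 (adjusted p = 0.965). The highest day 7 values of Sox9, 3.12 and 2.56, were on replicates 10 and 12, both high in brain genes. Without the arrays high in brain genes the changes were -0.75 for Acan and -0.53 for Sox9. Col2a1 and Col10a1, the collagens of cartilage and of hypertrophic cartilage, had changes of -1.08 and -1.75 that did not pass. Other members of the list were higher without passing. Col11a2 changed by 2.22 ± 0.79 (adjusted p = 0.36), Col9a2 by 1.49 ± 0.61 (adjusted p = 0.504) and Mia by 1.3 ± 0.57 (adjusted p = 0.57). Of the 16 genes 10 had a change below 0.

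Ddr2, Cpxm2, Slc5a6 and Aldh3a1 passed with values above the floor on all 17 arrays. Ddr2, a receptor tyrosine kinase for fibrillar collagen that osteoblasts need, ran between -0.06 and 1.89 with a median of 1.55 at days 10-14, against 0.70, 0.63, 0.32, -1.68 and -3.15 at day 7. Its change was 1.93 ± 0.37 (adjusted p = 0.00353), and 10 of 12 later arrays exceeded every day 7 array. Without the arrays high in muscle genes the change of Ddr2 was 1.47 (adjusted p = 0.242). In limma's fit of the compared groups alone its SE was 0.56 and its adjusted p was 0.868. Cpxm2, a secreted member of the carboxypeptidase family, ran between 0.75 and 2.92 with a median of 2.0, against 0.87, 0.42, 0.31, -0.51 and -1.77 at day 7. All but 1 of the later arrays exceeded day 7, and the change was 1.90 ± 0.40 (adjusted p = 0.0183), or 1.75 (adjusted p = 0.0621) without the arrays high in brain genes. Slc5a6, a sodium-dependent transporter of biotin and pantothenate, ran between 0.69 and 2.27 with a median of 1.74, against 0.85, 0.43, 0.39, -0.43 and -0.60 at day 7. Its change of 1.47 ± 0.33 (adjusted p = 0.0357) was the smallest of the 18, and without the arrays high in brain genes it was 1.44 (adjusted p = 0.0797). Aldh3a1, an aldehyde dehydrogenase, was at -0.50 to 2.50 with a median of 0.91, against -0.22, -0.37, -1.06, -1.35 and -1.98 at day 7. Only day 10 replicate 11 fell among the day 7 values, and the change was 1.97 ± 0.37 (adjusted p = 0.00255), or 1.87 (adjusted p = 0.0598) without the arrays high in muscle genes. The SDs at day 7 were 1.71 for Ddr2, 1.04 for Cpxm2, 0.62 for Slc5a6 and 0.72 for Aldh3a1.

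**Figure D2:**
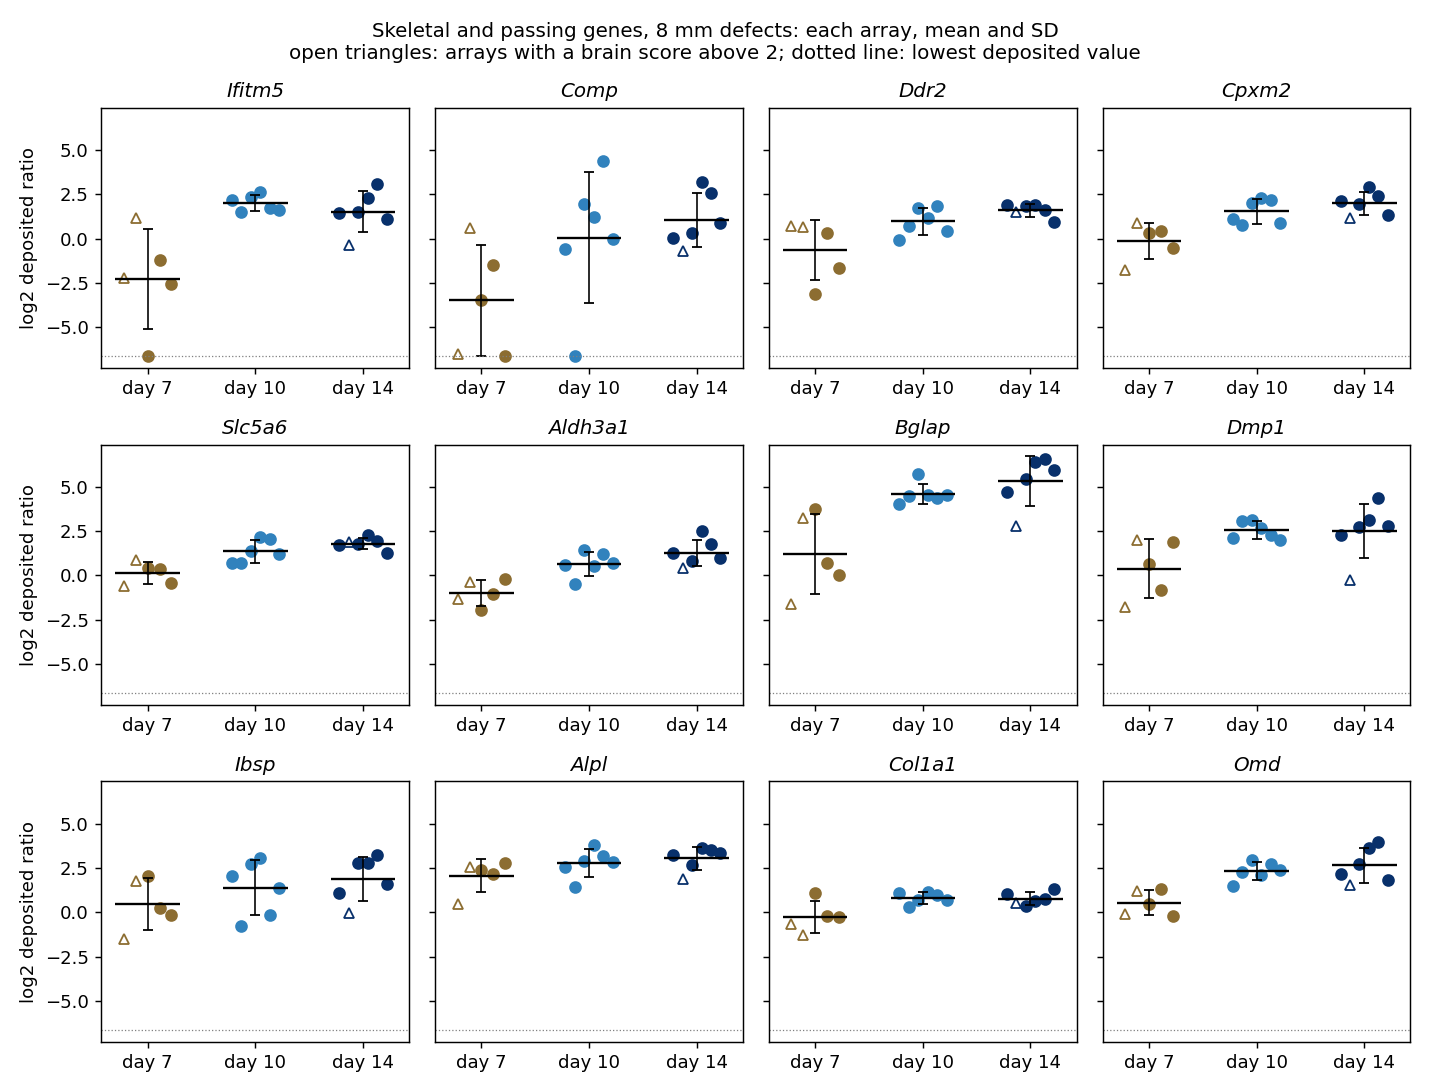
Log2 deposited ratio (vertical axes) of 12 genes on each array at days 7, 10 and 14 in 8 mm defects; bars show the mean and whiskers the SD, with 5, 6 and 6 arrays. Open triangles are the arrays with a brain score above 2, and the dotted line is the lowest deposited value, which 1 day 7 array of Ifitm5 and 2 arrays of Comp reached. All 12 later values of Omd lie above its 5 day 7 values.

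Among the passing genes 3 belong to blood cells. Cd79b, the signalling chain of the B cell receptor, ran between -3.40 and 2.22 with a median of 0.97 at days 10-14. At day 7 it was at 0.68, -0.72, -2.19, -5.02 and -6.64. The change was 3.52 ± 0.59 (adjusted p = 0.000563) in the fit over all 93 arrays. In limma's fit of the compared groups alone the SE of Cd79b was 1.08 and its adjusted p was 0.868. Its partner chain Cd79a, looked at after these values were seen, averaged -2.95 at days 10-14 and -3.01 at day 7 and changed by 0.06 ± 1.26 (adjusted p = 1.0). Cd79a had values at the floor at days 7, 10 and 14, and these enter both means. Of 7 B and plasma cell genes measured, Cd79b was the 1 that passed, and the list median was 0.06. Slamf8, a receptor of macrophages, ran between -2.20 and 1.13 with a median of 0.21, against -0.46, -0.50, -1.84, -6.64 and -6.64 at day 7. Its change was 3.37 ± 0.60 (adjusted p = 0.00167), and both values at the floor contributed to it. With the compared groups fitted alone in limma, the SE of Slamf8 was 0.95 and its adjusted p was 0.868. Ptprc, the common leukocyte antigen CD45, ran between -0.25 and 3.18 with a median of 1.01, against -0.70, -0.75, -0.78, -2.66 and -6.64 at day 7. Its change was 3.39 ± 0.57 (adjusted p = 0.000563), and its groups did not overlap. For Ptprc limma's fit of the compared groups alone gave an SE of 0.86 and an adjusted p of 0.741. Over all genes, 4 had every later array above every day 7 array (0.025%): Ptprc, Omd, the lysosomal protease Ctsd and Lkaaear1, which is named here after its values were seen. The count in the other direction was 0.

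The Ptprc call belonged to 1 of its 3 probes. The other probes changed by -0.42 and -0.02, and on them the day 7 arrays reached no lower than 0.11 and -0.33. Castor2, a relative of the arginine sensor of the mTORC1 pathway, and Srrm2, a component of the spliceosome, were alike in this. Castor2 changed by 4.99 ± 1.05 (adjusted p = 0.0183) on the probe used and by -0.78 on its other probe; it did not pass without the arrays high in brain genes (4.68, adjusted p = 0.0733) or in muscle genes (4.73, adjusted p = 0.229). Srrm2 changed by 2.04 ± 0.44 (adjusted p = 0.0238) on the probe used and by -0.16 and 0.18 on the others. These 3 were the only passing genes with several probes, and in 0 of them did another probe show 0.5 or more of the change. The other 15, Ifitm5 and Comp included, had 1 probe each, so the same check could not be made for them. Of the 106 genes that passed without the arrays high in brain genes, 24 had several probes, and in 2 another probe showed 0.5 or more of the change.

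**Figure D3:**
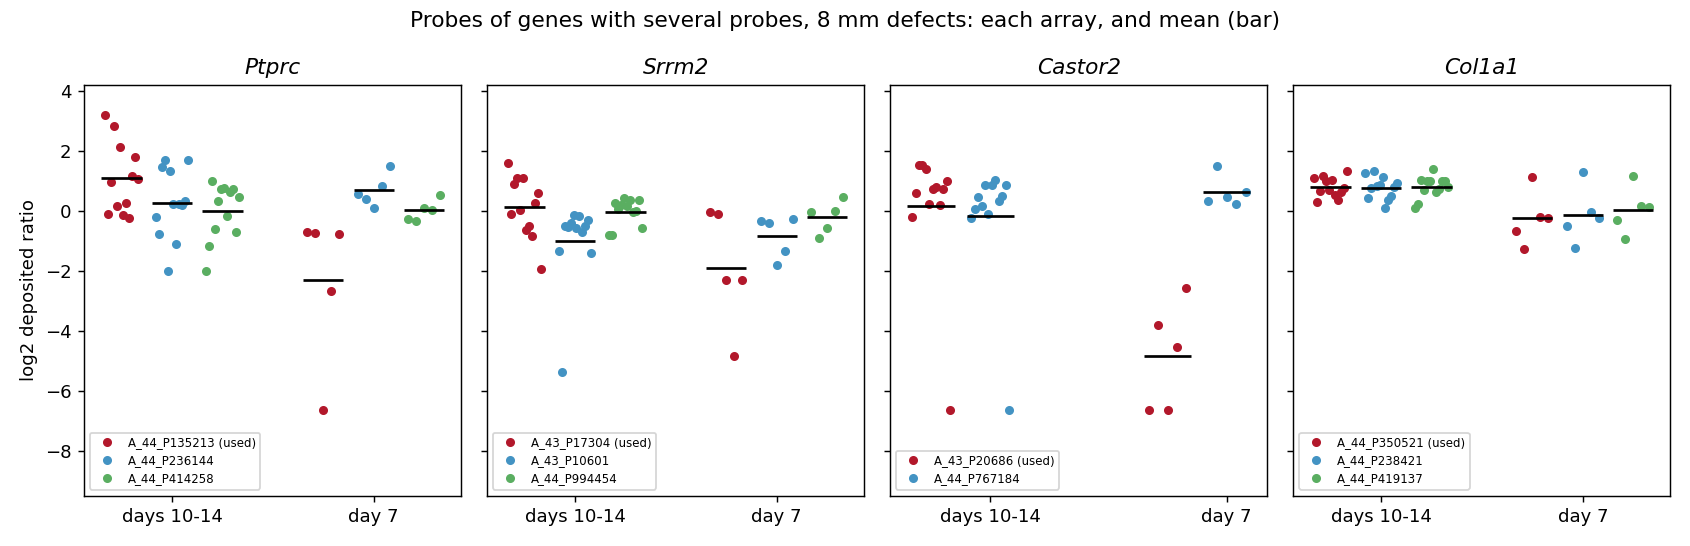
Log2 deposited ratio (vertical axis) of every probe of 4 genes on the 12 arrays of days 10-14 (left) and the 5 of day 7 (right); colours are probes and black bars are means. For Ptprc, Srrm2 and Castor2 the probe used (red) is low at day 7 and the others are not, with changes of 3.39 against -0.42 and -0.02 for Ptprc. The 3 probes of Col1a1 changed by 1.05, 0.92 and 0.76.

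The remaining genes that rose were Tmsb4x, which codes for an actin-binding peptide, Rara, a retinoic acid receptor, Polr2j, a subunit of RNA polymerase II, Rhbdl2, a membrane protease, and Sp9, a transcription factor. Rhbdl2 and Rara had changes of 2.63 and 2.87, and Polr2j, Tmsb4x and Sp9 had changes of 2.02, 2.01 and 1.50. Without the arrays high in muscle genes the changes were 1.50 for Rara (adjusted p = 0.834), 1.44 for Polr2j (adjusted p = 0.343), 1.20 for Tmsb4x (adjusted p = 0.318) and 1.40 for Sp9 (adjusted p = 0.314). Day 7 replicate 13 was the lowest or tied lowest day 7 array for 10 of the 16 higher genes, and day 7 replicate 12 for 0 of them. That array had 17.1% of its values at the floor, against 10.1% to 11.8% on the other 4 day 7 arrays; the part this has in the changes was not tested. Polr2j was at -6.41 and -3.88 on day 7 replicates 13 and 15 and between -0.93 and -0.09 on the other 3. Tmsb4x was at -4.52 on replicate 13 and between -1.43 and -0.38 on the other 4, and Rara was at -6.64 on replicate 13 and at 2.64 on replicate 14. Over the 7 days of the study, 13 of the 16 higher genes had their lowest 8 mm mean at day 7 (81.2%), against 1660 of 15974 genes (10.4%). The choice of genes higher than day 7 favours this, so the share is a description. The other 3 were Ddr2 and Cpxm2, lowest at day 1, and Slc5a6, lowest at day 3.

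Both genes that fell were at the lowest value on many later arrays, and the later arrays had a higher share of all values there, with a median of 17.5% against 10.2% at day 7. With ratios below 0.25 raised to 0.25, 12 genes passed, 12 higher and 0 lower, so neither of these genes did. The part the floor has in the size of both changes was not tested. LOC100911360 was at -6.64 on every day 14 array and between -6.64 and 1.04 at day 10, against -0.14 to 1.05 at day 7, a change of -5.13 ± 1.20 (adjusted p = 0.0468). It did not pass without the arrays high in brain genes (adjusted p = 0.103) or in muscle genes (-4.93, adjusted p = 0.314). Lhx2, a LIM homeobox factor of forebrain, eye and hair follicle, was at -6.64 to 3.37 with a median of -6.09 at days 10-14, against 4.23, 3.30, 0.16, -0.50 and -0.56 at day 7. Its change was -5.40 ± 1.26 (adjusted p = 0.0468), and its 3 highest arrays were the 3 with high brain scores. Without those arrays it was -4.45 (adjusted p = 0.206), and without those high in muscle genes -5.04 (adjusted p = 0.32).

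Osteocalcin had the largest change of the mineralization genes. Bglap ran between 2.82 and 6.60 with a median of 4.65 at days 10-14, against 3.76, 3.27, 0.68, 0.00 and -1.59 at day 7. Of 12 later arrays 11 lay above every day 7 array, the exception being day 14 replicate 11, 1 of the arrays high in brain genes. Its mean was 4.99 ± 1.09 at days 10-14 and 1.23 ± 2.25 at day 7 (SD), a ratio of 13.6, and the change of 3.76 ± 0.97 did not pass (adjusted p = 0.102). Without the arrays high in muscle genes it was 5.25 and passed (adjusted p = 0.0261). That fit left out day 7 replicates 12 and 13, which held the highest day 7 values of Bglap, 3.27 and 3.76. The day 7 values it kept were 0.68, 0.00 and -1.59, so the larger change came with the removal of the highest day 7 arrays. Dmp1, an acidic matrix protein of young osteocytes, ran between -0.23 and 4.42 with a median of 2.73, against 1.99, 1.91, 0.65, -0.83 and -1.77 at day 7. Its change of 2.16 ± 1.03 had an adjusted p of 0.635, and again day 14 replicate 11 alone fell among the day 7 values. Ibsp, bone sialoprotein, changed by 1.15 ± 1.10 (adjusted p = 0.931) and overlapped in 6 of 12 arrays.

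No gene of the osteoblast and osteocyte lists passed. Alkaline phosphatase (Alpl) ran between 1.43 and 3.82 with a median of 3.06 at days 10-14, against 2.81, 2.59, 2.38, 2.17 and 0.50 at day 7, so it was above its usual level on all 17 arrays. Its change was 0.85 ± 0.95 (adjusted p = 0.957). Mepe, a protein of osteocytes, changed by 1.04 ± 0.99 and Phex, a peptidase that controls phosphate, by 1.23 ± 1.85, and neither passed. Phex was at the floor on arrays of both groups. In the same list of mineralization proteins 8 genes had a change below 0, the lowest being Spock1 at -1.58 ± 1.58 and Ankh at -0.94 ± 0.88, and none of them passed. The master regulators Runx2 and Sp7 changed by 0.67 ± 1.21 and 0.90 ± 1.64 (adjusted p = 0.989 for both). Runx2 had values at the floor in both groups, and Sp7 had them at days 10-14 only. Dlx5, a homeobox activator of osteoblast genes, changed by 0.77 ± 0.44 (adjusted p = 0.775). Of 18 mineralization proteins 0 passed and 10 had a change above 0, with a median of 0.60, against 42.9% above 0 and a median of -0.10 over all genes. Of 13 osteoblast regulators and 11 osteocyte genes 0 passed, 10 and 8 had a change above 0, and their medians were 0.54 and 0.96. Without the arrays high in brain genes the medians of the 3 lists were 0.30, 0.32 and 1.40, and without those high in muscle genes they were 0.42, 0.31 and -0.14.

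The collagens and several other abundant transcripts moved as 1 block. Col1a1, the main chain of bone collagen, was between 0.28 and 1.34 at days 10-14, against 1.12, -0.20, -0.24, -0.67 and -1.29 at day 7, a change of 1.05 ± 0.36 (adjusted p = 0.305). On 16 of the 17 arrays it kept the same distance, within 0.02, from a profile shared with 45 other genes, 26 of them ribosomal protein genes. The 46 genes included Col3a1, Sparc, Bgn, Mgp, Timp2, Actb, B2m, Ftl1 and the globin gene Hbb-b1, and each kept to the profile on 12 or more arrays. Where they left it they were lower in 89 of 106 cases, and the other 17 cases were above it. The profile itself changed by 1.07 between days 10-14 and day 7, and the median change of the 46 genes was 1.06, with a range of 0.50 to 2.01. The deposited values of Col1a1, Col3a1, Sparc, Bgn and Mgp therefore do not show a change apart from that of ribosomal protein genes, and what sets the shared profile was not tested. Whether these values sit at an upper limit of the measurement could not be checked here, so the sizes of the changes of the genes on it, Col1a1, Col3a1, Hbb-b1, Alas2 and Tmsb4x included, may not be exact. Tmsb4x, the passing gene, kept to the profile on 12 arrays and was below it on the other 5. Of 11 fibrillar collagen genes 0 passed, and the 8 that are not in the block had a median change of 0.15.

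Small leucine-rich proteoglycans, which bind collagen fibrils and set their spacing, were mostly higher without passing. Osteomodulin (Omd), a keratan sulphate proteoglycan of osteoblasts, ran between 1.49 and 4.02 with a median of 2.35 at days 10-14, against 1.35, 1.22, 0.50, -0.08 and -0.23 at day 7. No array overlapped, and the change of 1.95 ± 0.61 had an adjusted p of 0.233. Osteoglycin (Ogn) changed by 1.10 ± 0.37 (adjusted p = 0.30), and its 2 probes gave 1.10 and 1.06. Of 11 members 0 passed and 10 had a change above 0, with a median of 0.99, and Lum, at -0.05, was the exception. Their median without Bgn, which belongs to the shared block, was 0.86, and without the arrays high in brain genes that of all 11 was 0.54.

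Other matrix genes followed the same limits. Ccn3, a matricellular growth regulator, was at 2.13 ± 0.92 at days 10-14 and 0.68 ± 0.61 at day 7 (SD), a change of 1.45 ± 0.42 (adjusted p = 0.173), with 10 of 12 later arrays above all day 7 arrays. Ccn5, a relative of it, changed by 0.93 ± 0.40 (adjusted p = 0.558). Adamts2, which removes the N-terminal propeptide of procollagen, and Loxl1, which cross-links elastin, changed by 0.82 ± 0.37 and 0.71 ± 0.40. Of 16 elastic fibre genes 0 passed and 14 had a change above 0, with a median of 0.35; of 21 collagen-processing genes 0 passed and the median was 0.16. Mmp13, the collagenase of hypertrophic cartilage and osteoblasts, ran between 0.37 and 2.87 at days 10-14, against 0.86, 0.37, -0.04, -0.13 and -0.91 at day 7, and changed by 1.53 ± 0.60 (adjusted p = 0.456). Of 20 matrix proteases and inhibitors 0 passed, with a median of 0.23.

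No osteoclast gene passed. Acp5, tartrate-resistant acid phosphatase, was at 0.71 ± 0.79 at days 10-14 and 0.18 ± 0.54 at day 7 (SD), and Ctsk, the protease that degrades bone collagen, at 0.94 ± 0.56 at days 10-14 and 0.35 ± 0.42 at day 7. Their changes of 0.53 ± 0.40 and 0.59 ± 0.40 had adjusted p-values of 0.878 and 0.858. Car2, the carbonic anhydrase that supplies acid to the resorption pit, changed by 1.07 ± 0.59 (adjusted p = 0.763). Of 14 osteoclast genes 0 passed, 10 had a change above 0 and the median was 0.14.

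No inflammatory or immune list other than the B cell one had a passing member. Of 15 neutrophil, 20 macrophage, 22 cytokine and chemokine, 12 MHC class II, 15 T and natural killer cell and 9 mast cell genes, 0 passed, and the list medians lay between -0.08 and 0.43 (T and natural killer cell genes), against -0.10 for all genes. Without the arrays high in brain genes the median was -0.87 for neutrophil genes, against 0.16 with them, and -0.24 for T and natural killer cell genes. In that fit 1 macrophage gene passed, the actin-binding protein Aif1, with a change of 2.24 (adjusted p = 0.0332), against 1.44 ± 0.48 (adjusted p = 0.274) on all arrays. S100a9, a calcium-binding protein of neutrophils, was at -0.06 ± 0.47 at days 10-14 and -0.94 ± 1.22 at day 7 (SD), and changed by 0.88 ± 0.54 (adjusted p = 0.821). Without the arrays high in brain genes the change of S100a9 was 0.06. Of the 15 neutrophil genes 9 had a change above 0 and 6 below it, among the latter S100a8 at -0.55 ± 1.43 (adjusted p = 0.997). Lgals3, a galectin of macrophages, changed by 0.85 ± 0.34 (adjusted p = 0.499) and Cd3g, a chain of the T cell receptor complex, by 1.21 ± 0.39 (adjusted p = 0.243). The neutrophil chemokine Cxcl2 was at -1.18 ± 1.01 at days 10-14 and 0.58 ± 1.61 at day 7, with 9 of 12 later arrays below all day 7 arrays (change -1.75 ± 0.81, adjusted p = 0.611). RT1-Ba, an MHC class II chain, was at the lowest value on 5 of 12 later arrays and between -1.33 and 4.43 on the other 7, and it was at the lowest value on all 5 day 7 arrays. Of 17 interferon-response genes 0 passed and 15 had a change above 0, with a median of 0.51. Of 13 erythroid genes 0 passed and all 13 had a change above 0, between 0.50 and 1.22, with Hbb-b1 at 1.09 and the haem synthesis enzyme Alas2 at 1.16, both in the shared block. Without the arrays high in brain genes the erythroid median was 0.31, against 1.01 with them.

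Vessel, proliferation and hypoxia genes tended below 0 without passing. Of 16 endothelial genes 0 passed and 13 had a change below 0, with a median of -0.41. Cldn5, a tight junction protein of endothelium that is abundant in brain vessels, was at -0.35 ± 0.64 at days 10-14 and 0.99 ± 0.57 at day 7 (SD), a change of -1.34 ± 0.44 (adjusted p = 0.272). Its 2 highest day 7 values, 1.43 and 1.50, were on the arrays high in brain genes. Pecam1, a junction protein of all endothelium, changed by -0.64 ± 0.52 (adjusted p = 0.898). Of 22 cell cycle genes 0 passed, 18 had a change below 0 and the median was -0.22, and the proliferation marker Mki67 was at -0.55 ± 0.72 at days 10-14 and -0.53 ± 0.67 at day 7 (SD). The change of Mki67 (-0.02) turned positive under quantile normalization, and that of Ccnb1, a mitotic cyclin (-0.26 ± 0.43), did too. Of 19 hypoxia and glycolysis genes 0 passed, 14 had a change below 0 and the median was -0.35. Of 13 smooth muscle and pericyte genes 0 passed, with a median of -0.39.

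BMP and TGF-beta genes (24 measured, median 0.05) and Wnt genes (20 measured, median -0.26) had 0 passing. Of the BMP and TGF-beta genes 12 had a change above 0 and 12 below it, the lowest being Bmpr1a, a type I BMP receptor, at -2.84 ± 1.87 (adjusted p = 0.85). Of the Wnt genes 7 were above 0 and 13 below it, between Wnt11, a Wnt ligand, at -2.63 ± 1.52 (adjusted p = 0.778) and Dkk1, a secreted Wnt inhibitor, at 2.37 ± 1.00 (adjusted p = 0.538). Bambi, a decoy receptor for BMPs, changed by 0.84 ± 0.32 (adjusted p = 0.423), Id2, a target of BMP signals, by 0.70 ± 0.34 (adjusted p = 0.663), and Wif1, another secreted Wnt inhibitor made by osteoblasts, by 1.26 ± 0.58 (adjusted p = 0.612). Wif1 was above all day 7 arrays on 10 of 12 later arrays.

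Brain and skeletal muscle genes had the lowest list medians. Of 23 skeletal muscle genes 0 passed and 20 had a change below 0, with a median of -1.37, and without the 3 arrays high in these genes the median was -0.24. Acta1, the actin of skeletal muscle, was between -6.64 and 2.68 at days 10-14, against 4.41, 2.21, -0.01, -1.02 and -1.16 at day 7, and changed by -3.39 ± 1.84 (adjusted p = 0.751). Of 16 brain genes 0 passed and 15 had a change below 0, with a median of -1.91, and without the 3 arrays high in them the median was -0.78. Mog, a protein of myelin, was at 4.97 and 5.06 on day 7 replicates 10 and 12 and at 4.61 on day 14 replicate 11, and its change was -4.89 ± 1.57 (adjusted p = 0.243). Of 14 meningeal genes 0 passed, with a median of 0.39. Slc47a1, a cation exporter on that list, was above day 7 on 9 of 12 arrays and changed by 1.19 ± 0.42 (adjusted p = 0.358). Adipocyte genes (11 measured) and epidermal genes (11 measured) had medians of -0.38 and -0.11 and 0 passing. What part these tissues have in the other results was not tested beyond leaving those arrays out.

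**Figure D4:**
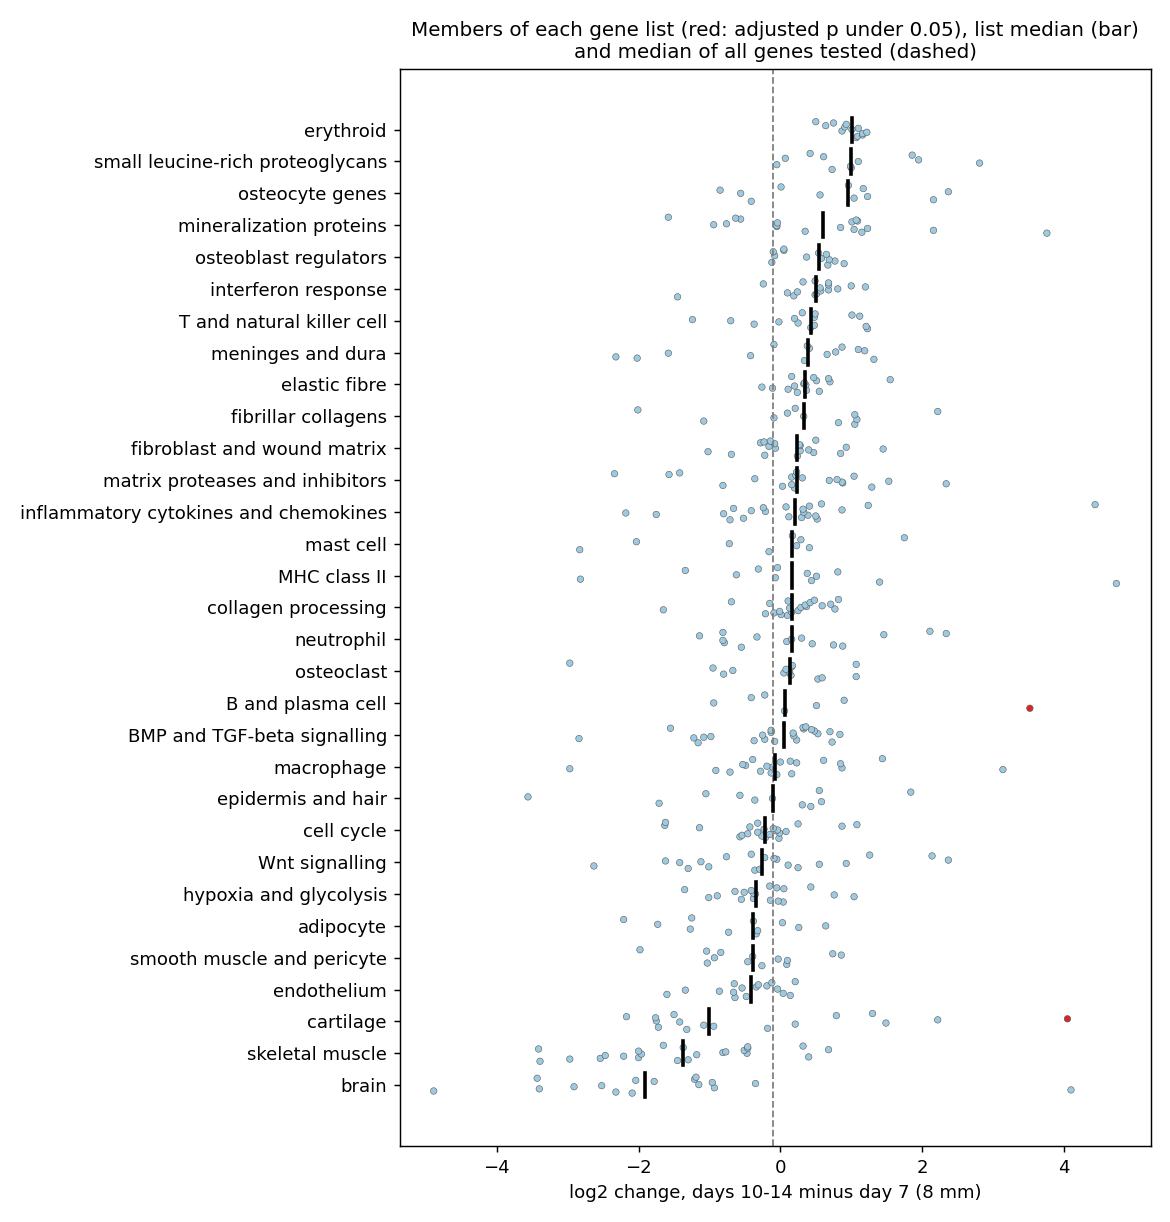
Log2 change of each measured member of 31 gene lists, days 10-14 minus day 7 in 8 mm defects (horizontal axis), by list (vertical axis). Black bars are list medians, the dashed line is the median of all genes at -0.10, and the red points are Comp and Cd79b, the 2 members that passed. Erythroid genes lie between 0.50 and 1.22, and the brain list has the lowest median.

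The pooled days were also taken singly against the same 5 day 7 arrays. Day 10 alone gave 14 passing genes (0.0876%), 8 higher and 6 lower, and day 14 alone gave 18 (0.113%), 11 higher and 7 lower. The direction of the day 10 calls moved with the arrays used: 74 were higher and 3 lower without the arrays high in brain genes, 18 higher and 33 lower without those of low level, and 17 higher and 1 lower without day 7 replicate 10. Of the 18 genes of the pooled comparison, 6 passed at day 10 alone and 12 at day 14 alone. Ptprc changed by 3.83 at day 10 and 2.96 at day 14, Cd79b by 3.45 and 3.58, Slamf8 by 3.50 and 3.23, and Tmsb4x by 2.15 and 1.87, and all of these values passed. Ddr2, Cpxm2, Slc5a6, Aldh3a1 and Comp passed at day 14 alone, with changes of 2.24, 2.13, 1.69, 2.28 and 4.55, and their day 10 changes of 1.62, 1.68, 1.25, 1.66 and 3.56 did not. Srrm2 and Castor2 passed at day 10 alone. Ifitm5 passed at neither day by itself, with changes of 4.31 (adjusted p = 0.0904) and 3.82 (adjusted p = 0.176). None of these differences between the days passed, since 0 of the 18 passed when day 14 was set against day 10.

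Day 14 against day 10 gave 8 passing genes (0.0501%), 5 higher and 3 lower, and each was at the lowest value on at least 1 of the 12 arrays. Cnot4, a subunit of the CCR4-NOT deadenylase complex, was at 2.75, 2.62, 2.54, 1.84, 0.26 and -1.82 at day 14 and at the lowest value on all 6 day 10 arrays (adjusted p = 0.011). Tnfsf14, a cytokine of the tumour necrosis factor family, was at -1.54 on 1 day 14 array and at the lowest value on the other 5, against -2.53 to 0.69 at day 10 (adjusted p = 0.0017). Eno4, an enolase of sperm, was at -0.17 on 1 day 14 array and at the lowest value on the other 5, against -1.57 to 1.14 at day 10 (adjusted p = 0.011). The remaining 5 were Or5a21, Or14a258, Nrn1, Ovol2 and Kdm5b. No gene of the bone lists passed between these days: Bglap was at 5.34 ± 1.41 at day 14 and 4.64 ± 0.56 at day 10 (SD; change 0.70, adjusted p = 0.943), and Ifitm5 at 1.51 ± 1.17 at day 14 and 2.01 ± 0.45 at day 10 (change -0.49, adjusted p = 0.958).

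The change in 8 mm defects was set against the same change in 4 mm defects, where 9 arrays of days 10-14 and 5 of day 7 were available. The difference between the changes passed for 2 of 15974 genes (0.0125%), and its median over all genes was 0.48. Usp47, a ubiquitin-specific protease, changed by 1.58 in 8 mm defects and by -1.47 in 4 mm defects, a difference of 3.05 ± 0.61 (adjusted p = 0.0293). Serpini1, neuroserpin, a protease inhibitor of neurons, changed by -3.07 in 8 mm and by 4.37 in 4 mm defects, a difference of -7.44 ± 1.40 (adjusted p = 0.0158), and in 8 mm defects its 3 highest arrays were those high in brain genes. Of the 18 genes 0 differed between the sizes. Ddr2 and Cpxm2 came closest among those with a role in matrix: they changed by 1.93 and 1.90 in 8 mm and by -0.52 and -0.61 in 4 mm defects, differences of 2.45 ± 0.54 (adjusted p = 0.0658) and 2.51 ± 0.58 (adjusted p = 0.0885). Comp changed by 4.05 in 8 mm and by -0.89 in 4 mm defects (adjusted p of the difference 0.112). For Bglap the difference between sizes was 0.65 (adjusted p = 0.868).

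**Figure D5:**
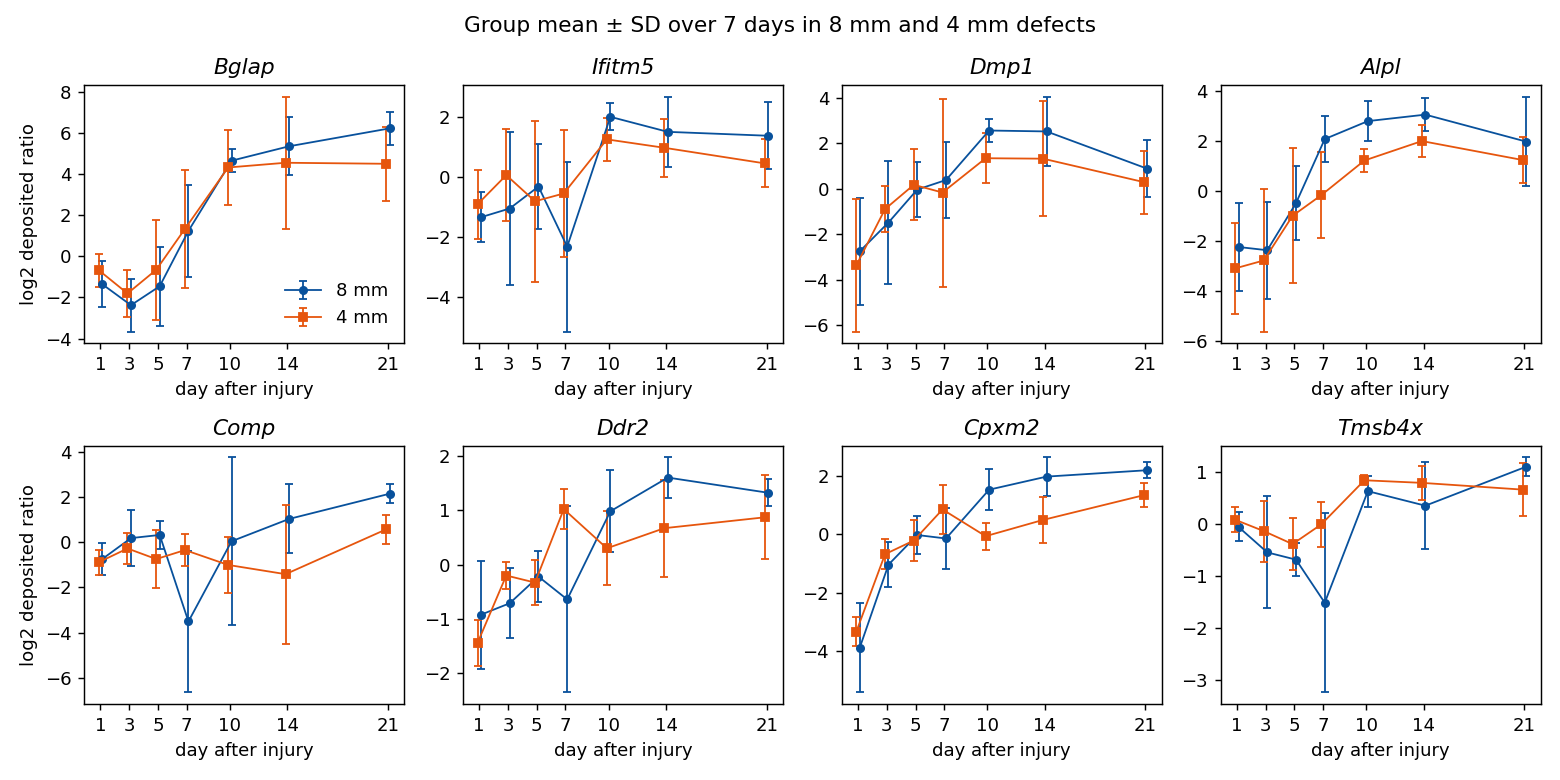
Group mean ± SD of the log2 deposited ratio (vertical axes) of 8 genes by day after injury (horizontal axes) in 8 mm (blue circles) and 4 mm (orange squares) defects, 5 to 12 arrays a point in 8 mm and 3 to 11 in 4 mm. Bglap is above 4 at day 10 in both sizes, and the 8 mm means of Ifitm5, Comp and Tmsb4x are lowest at day 7.

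The 7 days placed these values in the course of repair. The 8 mm mean of Bglap was -1.36, -2.38, -1.46, 1.23, 4.64, 5.34 and 6.21 at days 1, 3, 5, 7, 10, 14 and 21, so its step between days 7 and 10 stood within a longer climb. Alpl climbed earlier, with 8 mm means of -0.48 at day 5, 2.09 at day 7 and 2.81 at day 10. Dmp1 was highest at days 10 and 14, with means of 2.57 and 2.53, and averaged 0.89 at day 21. Ifitm5 had means of -0.31, -2.31, 2.01, 1.51 and 1.38 at days 5, 7, 10, 14 and 21. Cpxm2 had means of -3.90, -1.04, -0.02, -0.14, 1.54, 1.99 and 2.21 over the 7 days (SD at day 7 1.04). Tmsb4x and Comp had 8 mm means of -0.69 and 0.33 at day 5, -1.52 and -3.51 at day 7, and 0.63 and 0.05 at day 10, with SDs of 1.73 and 3.15 at day 7.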

How the data were processed

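RNA from 93 rat calvarial defects was measured on 1-colour Agilent arrays, and the deposited values are linear ratios with a lowest value of 0.01. How arrays were scaled, background-corrected and limited at the low end is not given in the sources used here, and the number of arrays limits the precision. The direction of the ratio is taken as higher for more RNA. A ratio above background cannot be told from these values.

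Groups came from the titles. Of 41090 probes 20932 had 1 gene symbol, 0 several and 20158 none in the platform annotation, and 17415 were matched to RefSeq (GRCr8), which updated 2315 symbols. A gene with several probes was represented by its most variable one (interquartile range), which affected 3881 of 15974 genes. The planned test assumed log values. As the table held ratios, their log2 was taken with no pseudocount.

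A model of 14 group means was fitted to all 93 arrays using lmFit and eBayes of limma 3.58.1 under R 4.3.3, with a prior df of 1.9. Adjusted p-values are Benjamini-Hochberg values of two-sided moderated tests over all genes. In simulated data of this comparison over 15974 genes, 1.5%, 35.8% and 48.5% of 2-, 4- and 8-fold changes were recovered. In those data 5% of the calls were false. Whether these percentages carry over to the deposited ratios, 13.42% of which were at the lowest value, was not tested. Nor was it tested for genes of unequal spread, such as Polr2j, with SDs of 2.69 at day 7 and 0.52 at days 10-14.

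The members and lists were chosen with earlier results of these data known. The 31 lists had 528 entries, 489 of them measured, and were described by counts and medians. All 18 passing genes were named. Further genes were drawn from up to 4 passing members of each list (with none passing, the 2 of smallest p). They were also drawn from the genes passing or the 3 of smallest p in the other comparisons. Not every gene so drawn is named: the hypoxia, smooth muscle, interferon, elastic fibre, adipocyte and epidermal lists, for instance, are given by counts and medians alone. Added were 12 genes given in any case (Bglap, Alpl, Ibsp, Dmp1, Col1a1, Acp5, Ctsk, Mmp13, Acta1, S100a9, Mki67 and Ccnb1). Others, such as Cd79a, Runx2, Sp7, Mepe, Phex, Spock1, Ankh, Pecam1, Acan, Sox9, Lum, Ctsd, Mobp, Aif1, Bmpr1a, Wnt11, Dkk1, Col2a1, Col10a1, Col11a2, Col9a2 and Mia, were chosen after their values were seen, as was the shared profile of abundant genes. Alternatives were quantile normalization, centring, the handling of the lowest value and of probes, array weights, a fit of the compared groups alone, a replicate block and leaving out arrays; leaving out arrays by brain or muscle score was added after seeing the data.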

Additional observations from a re-analysis of the deposited data

Results flagged for a closer look

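Of 90 groups of values of named genes, 9 held an array far from the others of its group by Dixon's test, and chance gives about 1 in 20. Castor2 was at -6.64 on day 14 replicate 15, where the other 5 arrays of that day lay between 0.20 and 0.99. Cd79b was at -3.40 on day 14 replicate 11, an array high in brain genes. Slamf8 and Tmsb4x were at -2.20 and -1.26 on day 14 replicate 12, and Tmsb4x was at -4.52 on day 7 replicate 13. Rhbdl2 and Bglap were high on day 10 replicate 12, at 1.81 and 5.73. Alpl was low on day 7 replicate 10, at 0.50, also an array high in brain genes, and S100a9 was at -1.40 on day 10 replicate 11, an array of low level.

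The change differed between 8 mm and 4 mm defects for 2 genes by limma's interaction term, by -7.44 for Serpini1 (adjusted p = 0.0158) and by 3.05 for Usp47 (adjusted p = 0.0293). Serpini1 was at -1.47 ± 3.03 at days 10-14 and 1.61 ± 2.01 at day 7 in 8 mm defects, and at 0.50 ± 1.43 at days 10-14 and -3.87 ± 3.70 at day 7 in 4 mm defects (SD).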

How the results depend on the processing

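The number of passing genes depended on the setting. Days 10-14 against day 7 gave 18 genes, and 0 genes passed in limma when the 17 arrays were fitted alone. In that fit the smallest adjusted p was 0.0806, for Or5a21, which is not among the 18. The smallest among the 18 was 0.373. In the order quantile normalization, centring of each array, all probes singly and array weights, that count was 28, 66, 35 and 210. It was 35 without arrays of level below -0.7 and 106 without the arrays high in brain genes. Leaving out 1 array at a time gave 6 to 63 genes: 43, 63, 37, 37 and 6 without day 7 replicates 10, 12, 13, 14 and 15, 38 and 10 without day 10 replicates 11 and 13, and 9 without day 14 replicate 14. Day 10 against day 7 gave 14 genes, 7 after quantile normalization, 61 centred, 3 among genes above the floor, 7 with values below 0.25 raised, 36 by single probes, 192 with weights, 7 fitted alone, 51 without low-level arrays, 77 and 5 without those high in brain or muscle genes, and 7 to 40 leaving out 1 array (7, 33, 27 and 7 without day 7 replicates 13, 12, 14 and 15; 40, 8 and 23 without day 10 replicates 11, 13 and 14). Day 14 against day 7 gave 18 genes, 32 centred, 6 above the floor, 8 with values raised, 147 with weights, 4 fitted alone, 96 without arrays high in brain genes and 6 to 35 leaving out 1 (35, 6 and 6 without day 7 replicates 12, 13 and 15; 11 and 8 without day 14 replicates 13 and 14). Day 14 against day 10 gave 8 genes, 3 centred, 0 above the floor or with values raised, 5 by the mean of probes, 15 singly, 3 fitted alone, 19 without low-level arrays, 5 and 13 without those high in brain or muscle genes and 4 to 23 leaving out 1 (14, 15 and 23 without day 10 replicates 12, 14 and 15; 5, 13 and 4 without day 14 replicates 11, 12 and 15). The difference from 4 mm gave 2 genes, 0 after quantile normalization or fitted alone, 6 above the floor, 8 with values raised, 1 by the mean of probes or singly, 12 without low-level arrays, 116 and 6 without those high in brain or muscle genes, and 0 to 37 leaving out 1 (23, 37 and 19 without 8 mm day 7 replicates 10, 12 and 14; most others also moved it by over 1.5 times). The cause of these shifts was not tested.

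The replicate number is the rat number in each title, and samples of the same number were not more alike. Of 16 same-numbered pairs 0 correlated above 0.1 (r between -0.037 and 0.064), and 2 of 16 arrays correlated best with their own number. The median r was -0.005 for the same number and 0.001 for another number. Whether a number stands for a shared batch or animal cannot be told from these correlations. The block was fitted on the compared groups alone, where the counts in the 5 comparisons in the order above were 0, 7, 0, 0 and 44 with the replicate block and 0, 7, 4, 3 and 0 without it.

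The change of Mki67 turned to 0.04 under quantile normalization, 0.09 by the mean of probes, 0.19 with weights, 0.15 with the block and between -0.25 and 0.23 leaving out 1 array, against -0.02. That of Ccnb1 turned to 0.32 under quantile normalization, 0.22 with weights and lay between -0.43 and 0.04 leaving out 1 array. Tyms lay between -0.28 (without day 7 replicate 13) and 1.56 leaving out 1 array and turned to -0.37 without arrays high in muscle genes, and RT1-Db1 to 0.75 without the latter. Sp7 lay between -0.12 (without day 7 replicate 10) and 1.62 and turned to -0.08 without arrays high in brain genes, and Runx2 lay between -0.40 (without day 7 replicate 15) and 1.38. Cd79a turned to -0.59 without low-level arrays, -2.03 and -0.55 without those high in brain or muscle genes, and lay between -0.85 and 0.78 leaving out 1. Values at the floor have no order, signal over background is not known here, and changes of 2-fold were mostly below what this design recovered in simulated data.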

Other observations

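Between these 17 arrays the correlation over all 41090 probes was low, between -0.058 and 0.448, and the highest between any 2 of the 93 arrays was 0.623. Mobp, a gene of myelin, was at 6.47 on day 14 replicate 11 and at 7.47 and 6.67 on day 7 replicates 10 and 12, but it also reached 5.15 and 4.17 on day 14 replicates 15 and 10, while the other 3 day 7 arrays were at the lowest value. It was the 1 brain gene of 16 with a change above 0, at 4.10 ± 2.03 (adjusted p = 0.663). Ctsd, a lysosomal protease, changed by 1.00 with no overlap between the groups, at 0.52 at days 10-14 and -0.47 at day 7, close to the change of 1.07 of the profile shared by abundant genes. That profile was lowest on day 7 replicates 12 and 10, at -1.96 and -1.35, and all 17 departures above it were on 1 array, day 10 replicate 10.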
